A study of Mus musculus with 12 samples.

Results

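The genes described here are 33 mouse genes that interferon is known to switch on. They were chosen by name, and each was followed through the array probe that was assigned to its symbol. Of the 33 genes, 30 were matched to a probe and 29 were bright enough to be tested, among 24183 genes tested in all. Mx1, Mx2 and Ddx60 had no probe matched through a RefSeq identifier and were not analysed here. Epsti1 was matched, but its probe was well above background on 1 WT array and on 0 arrays of the other groups. All 29 tested genes were well above background on all 12 arrays, so none of their values is a limit.

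The arrays compared DKO172 cells, a mouse line from a fallopian tumor, that received plasmids coding for GFP, for wild-type DICER1 (WT), or for DICER1 with the change D1709N or G1809R. As background that the labels do not give, the line comes from a mouse model in which Dicer1 was deleted, so all 4 groups share that deletion. The cells were plated at 200000 per well, given 2 µg of pLD-hygro-EnVM plasmid, and re-plated after 24 h. Selection in 300 µg/ml hygromycin followed for 84 h, and RNA was taken 108 h after transfection. Each group has 3 arrays, and the labels do not say whether these were separate cultures, so p-values measure the spread between the arrays. DICER1 cuts double-stranded RNA and microRNA hairpins, and both changes lie in the RNase IIIb domain, where mutations impair the cutting that releases microRNAs from the 5' arm of their hairpins. The line is 1 tumor line, and the level of the introduced DICER1 was not analysed here.

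Type I interferons such as interferon beta are secreted after a cell senses foreign or misplaced nucleic acid, and bind a receptor made of IFNAR1 and IFNAR2. Its kinases JAK1 and TYK2 phosphorylate STAT proteins, among them STAT2, which joins IRF9 in the factor ISGF3. ISGF3 binds the interferon-stimulated response element (ISRE) in the promoters of many genes, while interferon gamma acts mostly through the gamma-activated site (GAS). The products of these genes block viral entry, stop translation, edit or destroy RNA, and raise the sensitivity of the cell to further interferon.

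Promoter sequences are shown as background, because interferon is known to act through these elements. Their part in the levels below was not tested. RefSeq promoters of build GRCm38.p6, from 250 bases before to 50 bases after a gene's start, were at hand for 25 of the 29 tested genes. The ISRE core, GAAA followed by any 2 bases and GAAA, read on both strands, was present in 6 of the 25 (24.0%), against 3.99% of 27025 genes with a promoter of the same length. The 6 were Rsad2, Bst2, Stat2, Trim21, Eif2ak2 and Tdrd7. The GAS core, TTCNNNGAA, which reads the same on both strands, was present in 5 of 25 (Bst2, Irf1, Ifi35, Eif2ak2 and Adar), against 9.55% of genes. These shares describe letters in a window and not binding. The genes were chosen because interferon switches them on, so a higher share of the ISRE core is no result of these arrays. Capitals mark the ISRE core in Rsad2 (chr12:26456518-26456617, minus strand), Bst2 (chr8:71537542-71537647, minus strand) and Stat2 (chr10:128270248-128270330, plus strand), and the GAS core in Irf1 (chr11:53769879-53769977, plus strand). Bst2 holds 2 ISRE matches that overlap, and Rsad2 and Stat2 hold the core in its reverse complement. Ifi44 (chr3:151749911-151750010, minus strand), which had the widest range of levels, is shown for the 100 bases before its start, where neither core occurs in its exact letters. Looser spellings of the cores were not searched.
Rsad2: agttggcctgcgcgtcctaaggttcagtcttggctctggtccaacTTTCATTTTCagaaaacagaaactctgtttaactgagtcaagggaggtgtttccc
Bst2: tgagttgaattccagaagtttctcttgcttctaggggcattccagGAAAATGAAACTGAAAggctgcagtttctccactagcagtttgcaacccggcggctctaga
Stat2: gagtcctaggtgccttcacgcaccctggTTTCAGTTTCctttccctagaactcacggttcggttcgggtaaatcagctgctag
Irf1: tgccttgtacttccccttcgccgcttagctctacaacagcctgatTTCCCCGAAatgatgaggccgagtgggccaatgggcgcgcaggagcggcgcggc
Ifi44: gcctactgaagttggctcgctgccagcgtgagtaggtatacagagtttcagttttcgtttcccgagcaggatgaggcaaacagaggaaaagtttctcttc

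Every level below is the log2 signal of a probe relative to the 75th percentile of its array, so 0 is that percentile, and levels of different genes are not compared. A change is the difference between 2 group means on this log2 scale, and it was called where limma's p, adjusted over all genes, was under 0.05. Slide 1 held replicate 1 of all 4 groups, and slide 2 held the other 8 arrays. WT replicate 1 stood apart. It had 82.7% of probes well above background, against at most 71.3% on the other arrays of slide 1 and 49.4% to 62.6% on slide 2, and it correlated with WT replicates 2 and 3 at 0.977 to 0.980, where other pairs of arrays within a group gave 0.981 to 0.993. Arrays with the same replicate number deviated together, so a second fit with the replicate number as a block is given beside the first. An SE printed with p-values of the block fit alone is that of the block fit, and other SEs are from the fit without it. The 3 constructs share the GFP arrays, so their changes against GFP are not independent of each other.

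Against GFP, the interferon-stimulated genes were higher on average with every construct, by most with wild-type DICER1. The median log2 change of the 29 genes was 1.72 with WT, 1.01 with D1709N and 1.26 with G1809R, while the median of all genes was 0.04, 0.03 and 0.05. All 29 means lay above GFP with each construct, and the mean was at least doubled for 20 genes with WT, 15 with D1709N and 19 with G1809R. In bulk RNA, more cells that express a gene and more RNA per cell cannot be told apart.

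The number of calls depended on how the spread between replicates was treated. In WT against GFP, 2 genes were called higher, Cmpk2 and Xaf1, where the background over all genes was 1.19% called higher. With the replicate block, 24 of 29 rose, against a background of 9.18%, and with the slide as block 11 did, against 4.24%. At an unadjusted p under 0.05, 23 of 29 were higher, against 7.36% of all genes. On 17 of 29 probes every WT array lay above every GFP array, against 9.64% of all genes. Leaving out single arrays kept the block count between 20 and 25, while the block calls over all genes ranged from 2328 to 4035, against 4300 with all arrays. Without the block, the count of 2 became 9 without WT replicate 3, 4 without GFP replicate 2, 1 without D1709N replicate 2 and 2 without G1809R replicate 2. It became 0 when any of the other 8 arrays was left out. Over all genes, the calls in these fits ranged from 146 to 601, against 713 with all arrays.

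With D1709N against GFP, limma called 0 of 29 genes, as it did nearly no gene at all (0.0496%), and at an unadjusted p under 0.05 the count was 10 (background 3.51% higher). With the replicate block 11 rose, against a background of 1.77%, and with the slide as block 1 did (Slfn2), against 0.161%. The arrays of the 2 groups did not overlap for 11 of 29 genes, against 7.77%. The block count changed with the array left out, and so did the block calls over all genes. Those ranged from 127 to 1262 in the fits that left out 1 array, against 1028 with all arrays. The block count of the 29 genes became 0 without D1709N replicate 2 or 3 or without GFP replicate 3, and 1 without D1709N replicate 1. It became 2 without GFP replicate 1 and 3 without GFP replicate 2. Leaving out G1809R replicates 1, 2 and 3 gave 5, 4 and 5 calls, and leaving out WT replicate 1 gave 21. Gene by gene, the block calls with D1709N were made in 2 (Parp9 and Eif2ak2) to 8 (Slfn2 and Znfx1) of the 12 leave-one-out fits.

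With G1809R against GFP, limma called 0 of 29 genes (background 0.0124%), with 19 at an unadjusted p under 0.05 (background 3.35% higher). With the replicate block 21 rose, against a background of 1.75%, and with the slide as block 1 did (Slfn2), against 0.0827%. Every G1809R array lay above every GFP array for 16 of 29 genes, against 6.14%. Over all genes, the block calls ranged from 18 to 1082 in the fits that left out 1 array, against 904 with all arrays. The block count of the 29 genes became 0 without G1809R replicate 2 or 3, and 1 without GFP replicate 3. It became 2 without G1809R replicate 1 and 3 without GFP replicate 1 or 2. It was 13 without D1709N replicate 2 or 3 and 24 without WT replicate 1. Gene by gene, the block calls with G1809R were made in 2 (Cmpk2 and Adar) to 10 (Slfn2) of the 12 leave-one-out fits.

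**Figure D1:**
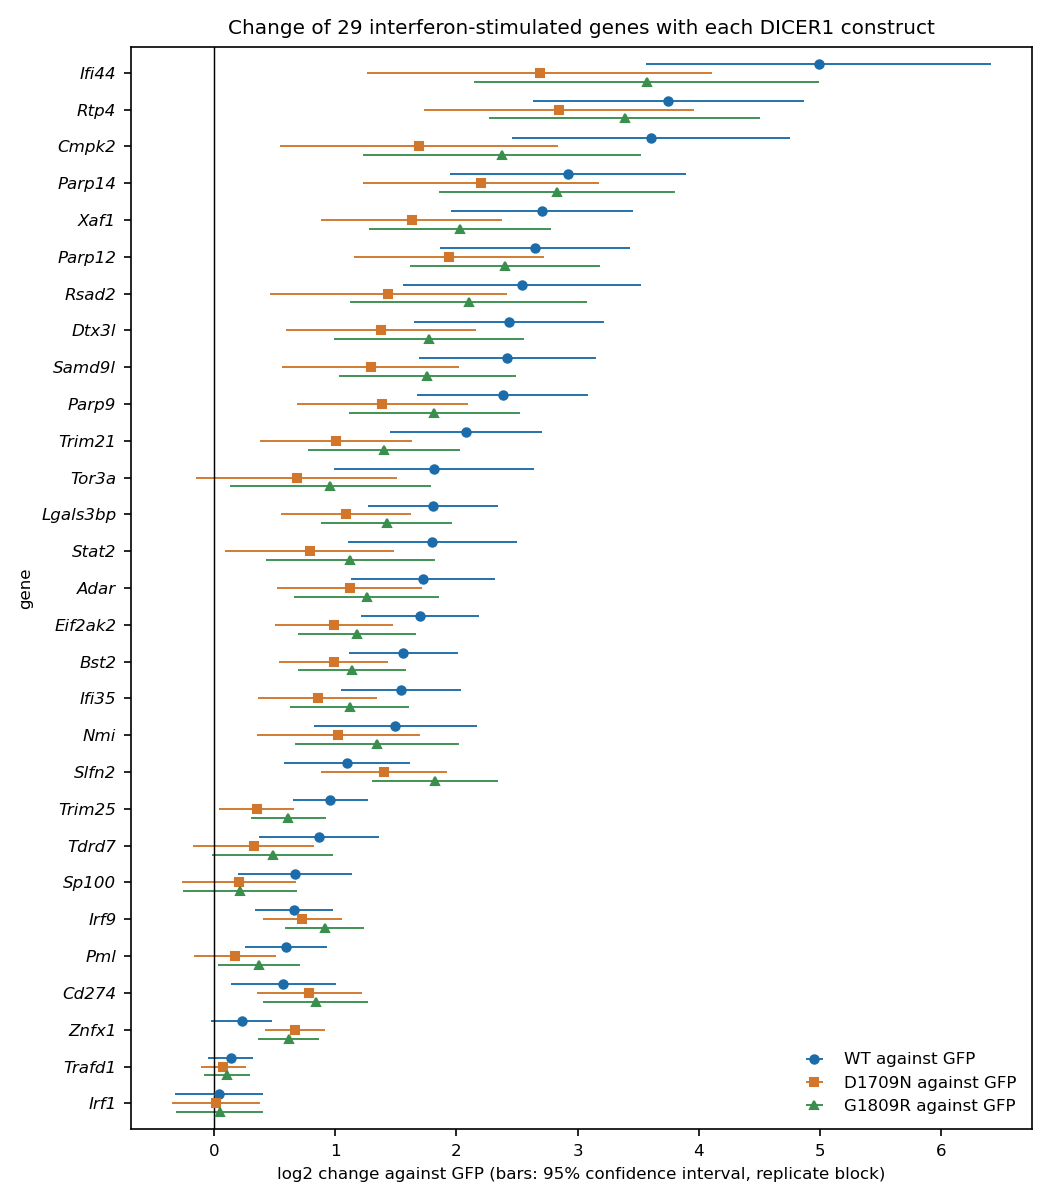
Log2 change against GFP (horizontal axis) of each of the 29 genes (vertical axis, in order of the WT change) with WT, D1709N and G1809R, with 95% confidence intervals from the fit with the replicate block. All points lie at or right of 0, from 0.01 for Irf1 with D1709N to 4.99 for Ifi44 with WT, and WT is the farthest right for 24 genes.

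Of the 5 transcription factors and their partners, 4 rose with WT in the fit with the replicate block, 1 with D1709N and 3 with G1809R, and none was called without it. Stat2, the subunit of ISGF3 that carries its activation domain, stood at 1.48, 2.33 and 1.32 on GFP replicates 1 to 3, at 4.11, 4.30 and 2.12 on WT, at 2.18, 3.49 and 1.83 on D1709N and at 2.69, 3.77 and 2.04 on G1809R. WT replicates 1 and 2 lay above all other arrays, and WT replicate 3 lay below GFP replicate 2. The Stat2 change with WT was 1.80 ± 0.67 (SE), 3.49-fold, with a limma adjusted p of 0.216 and of 0.00558 with the replicate block. Irf9, which gives ISGF3 its DNA contact, was at 2.81, 3.79 and 2.74 with GFP, 3.89, 4.01 and 3.43 with WT, 3.65, 4.37 and 3.52 with D1709N, and 3.83, 4.59 and 3.67 with G1809R. The Irf9 changes with WT, D1709N and G1809R were 0.66, 0.73 and 0.91 (SE 0.14 each), with block adjusted p of 0.0145, 0.0315 and 0.0184 in limma. The GFP arrays overlapped each of the others through GFP replicate 2.

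Irf1, a factor that interferon gamma induces through its GAS, was at 2.54, 3.15 and 2.77 with GFP, 3.09, 2.92 and 2.57 with WT, 2.62, 3.17 and 2.73 with D1709N and 2.66, 3.30 and 2.65 with G1809R. The 4 groups overlapped almost fully. The Irf1 change with WT was 0.04 (95% interval -0.32 to 0.40 with the replicate block, limma adjusted p = 0.900), so a rise of the size seen for Stat2 lies outside its interval. The other probe of Irf1 was well above background on 2 arrays and was not used. Nmi and Ifi35, partner proteins that bind each other and join innate signalling, changed by 1.5 ± 0.30 and 1.54 ± 0.22 (SE) with WT, and both rose only with the replicate block (limma adjusted p = 0.0102 and 0.00251). Their G1809R changes of 1.34 and 1.12 were called with the block too (0.0467 and 0.0324), and their D1709N changes of 1.03 and 0.86 were not (0.0924 and 0.0623).

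Both genes that act on double-stranded RNA rose with WT and with G1809R in the block fit. Eif2ak2, the kinase PKR that halts translation on binding double-stranded RNA, was at 0.75, 1.54 and 0.73 with GFP, 3.12, 3.13 and 1.87 with WT, 1.80, 2.54 and 1.65 with D1709N, and 1.96, 2.76 and 1.84 with G1809R. All 9 arrays with DICER1 lay above the 3 GFP arrays. Its changes were 1.70 with WT, 0.99 with D1709N and 1.18 with G1809R (SE 0.21 each), with block adjusted p of 0.00168, 0.0407 and 0.0274 in limma. Without the block the Eif2ak2 change with WT missed the threshold (0.0618).

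Adar, the enzyme that turns adenosines in double-stranded RNA into inosines, stood at 0.62, 1.58 and 0.64 with GFP, 3.27, 2.90 and 1.84 with WT, 1.82, 2.61 and 1.77 with D1709N and 2.09, 2.70 and 1.83 with G1809R. Here too no array with DICER1 overlapped the GFP arrays. Changes were 1.72, 1.12 and 1.26 (SE 0.26 each), with limma block adjusted p of 0.00344, 0.0521 and 0.0405, so D1709N was just outside the threshold. The other Adar probe gave smaller changes, 1.04 with WT, 0.41 with D1709N and 0.67 with G1809R.

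Of the 12 antiviral effectors, 9 were tested. Of these, 8 rose with WT, 4 with D1709N and 8 with G1809R in the block fit, and Cmpk2 with WT was the call made without the block. Rsad2 and Cmpk2 are neighbours on chromosome 12. Rsad2, viperin, makes a chain-terminating nucleotide that stops viral polymerases, and Cmpk2 is the kinase thought to supply its substrate. Cmpk2 was at -4.15, -1.67 and -3.34 with GFP, 1.32, 1.07 and -0.73 with WT, -1.94, -0.31 and -1.83 with D1709N, and -1.46, 0.28 and -0.85 with G1809R. Every WT and every G1809R array lay above the GFP arrays. The Cmpk2 change with WT was 3.60 ± 0.78 (SE), 12.2-fold (limma adjusted p = 0.0413), and its other probe gave 3.54. The call of Cmpk2 was lost, without a change of direction, when any of GFP replicates 1 and 3, WT replicates 1 and 2, D1709N replicates 1 and 3 or G1809R replicates 1 and 3 was left out (adjusted p 0.0531 to 0.147). It was also lost with quantile normalization (0.0512), without the filter on dim probes (0.0993), with only the 2 groups compared (0.170) and on slide 2 alone (0.267). The call was made in all 12 leave-one-out fits with the block.

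Rsad2 was at 0.71, 3.47 and 1.26 with GFP, 4.85, 4.89 and 3.33 with WT, 2.56, 4.41 and 2.80 with D1709N and 3.21, 5.01 and 3.53 with G1809R. GFP replicate 2 lay above WT replicate 3. The Rsad2 changes were 2.54, 1.44 and 2.10 (SE 0.43 each), with block adjusted p of 0.00552, 0.100 and 0.0389 in limma. Bst2, tetherin, which holds budding virus at the cell surface, was at 4.56, 5.73 and 4.16 with GFP, 6.75, 6.99 and 5.39 with WT, 5.65, 6.55 and 5.21 with D1709N and 5.71, 6.71 and 5.44 with G1809R. All groups overlapped through replicate 2 of GFP, while within each replicate number GFP was the lowest. Bst2 changed by 1.56, 0.99 and 1.14 (SE 0.20 each), and each was called with the block (limma adjusted p = 0.00171, 0.0335 and 0.0236).

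Ifi44, a cytoplasmic protein with a GTP-binding motif, showed the widest range of all 29 genes. Its level was -3.56, 0.15 and -3.04 with GFP, 3.55, 3.99 and 0.98 with WT, -0.80, 2.44 and -0.02 with D1709N and 0.19, 3.26 and 0.82 with G1809R. WT and G1809R did not overlap GFP, and D1709N did. The WT mean was 31.7-fold above GFP, a change of 4.99 ± 1.29 (SE), with a limma adjusted p of 0.0745 and of 0.00167 with the block. The Ifi44 change was 2.69 with D1709N (block adjusted p = 0.0512 in limma) and 3.57 with G1809R (0.0247). Rtp4, a chaperone of membrane receptors with antiviral activity, was at 0.08, 3.07 and 0.26 with GFP, 5.57, 5.35 and 3.75 with WT, 3.28, 5.18 and 3.49 with D1709N and 4.09, 5.67 and 3.82 with G1809R. All arrays with DICER1 lay above GFP. Rtp4 rose with each construct in the block fit, by 3.75, 2.85 and 3.39 (SE 0.49 each, limma adjusted p = 0.00192, 0.0221 and 0.0149).

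Samd9l, an antiviral protein that restricts translation, was at 0.73, 1.94 and 0.67 with GFP, 4.09, 4.16 and 2.35 with WT, 2.00, 3.11 and 2.10 with D1709N and 2.40, 3.72 and 2.49 with G1809R. No array with DICER1 overlapped GFP, though D1709N replicate 1 exceeded GFP replicate 2 by little. Changes of Samd9l were 2.42, 1.29 and 1.76 (SE 0.32 each), with block adjusted p of 0.00200, 0.0602 and 0.0279 in limma. Tdrd7, a tudor protein with antiviral activity, rose with WT in the block fit, by 0.87 ± 0.22 (SE, limma adjusted p = 0.0271). That call was made in 8 of 12 fits that left out an array, and its D1709N and G1809R changes of 0.33 and 0.48 were not called.

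Slfn2 and Znfx1 were ordered differently from the other effectors, with higher means in both mutants than in WT. Slfn2, a Schlafen protein, was at -2.54, -0.91 and -1.20 with GFP, -0.59, -0.35 and -0.43 with WT, -0.58, 0.03 and 0.10 with D1709N and -0.39, 0.66 and 0.55 with G1809R. Every array with DICER1 lay above the GFP arrays. Its changes against GFP were 1.1, 1.40 and 1.82 (SE 0.23 each), and all 3 were called with the replicate block (limma adjusted p = 0.0129, 0.0192 and 0.0115) and with the slide block (0.0193, 0.0404 and 0.0304). Znfx1, a helicase that senses RNA in mitochondria-linked antiviral signalling, was at 3.30, 3.39 and 3.15 with GFP, 3.55, 3.59 and 3.38 with WT, 3.69, 4.30 and 3.86 with D1709N and 3.76, 4.15 and 3.79 with G1809R. Every mutant array lay above every WT and GFP array. Znfx1 rose by 0.67 with D1709N and 0.62 with G1809R in the block fit (SE 0.11 each, limma block adjusted p = 0.0192 and 0.0264). Its WT change was 0.23 (95% interval -0.02 to 0.48, adjusted p = 0.193).

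**Figure D2:**
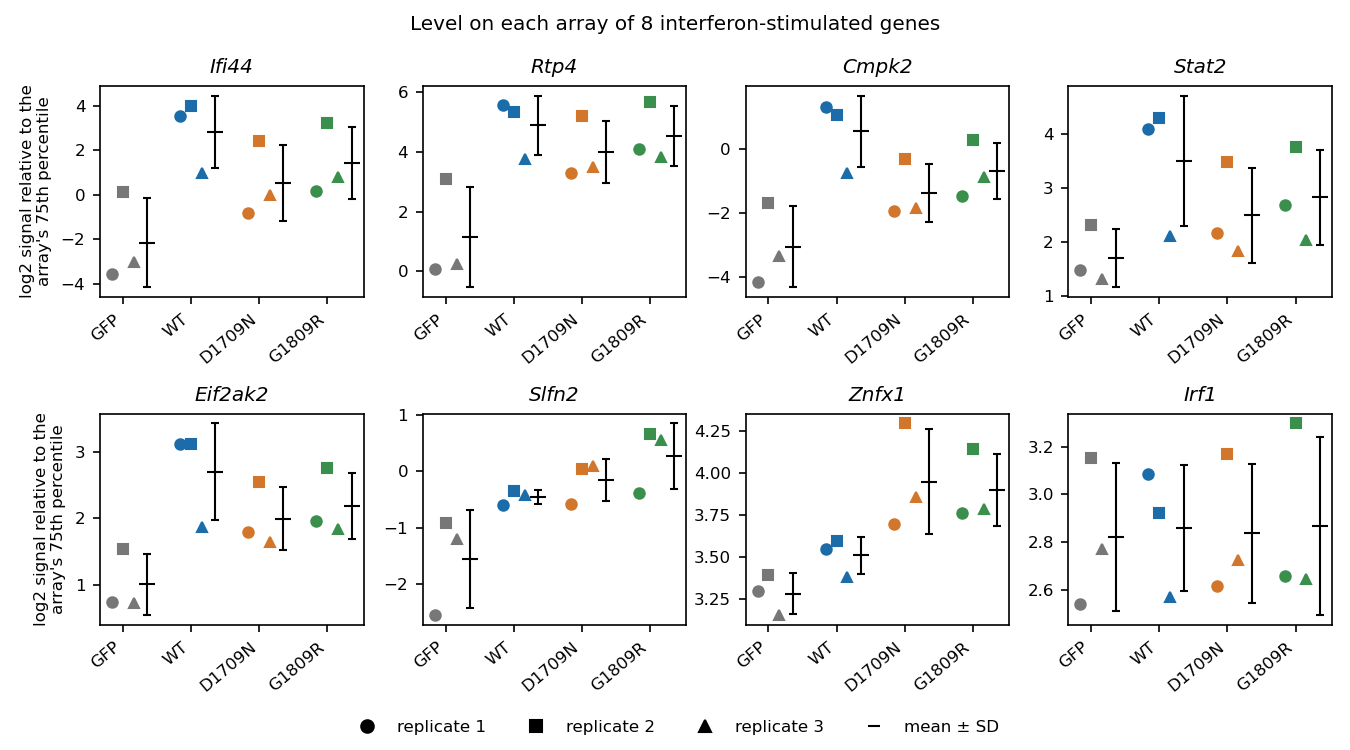
Log2 level relative to the array's 75th percentile (vertical axes, scales differ) of 8 genes in the 4 groups (horizontal axes). Points are arrays, with shapes for replicates 1 to 3, and bars are the mean ± SD of 3 arrays. WT replicate 3 (blue triangle) lies below WT replicates 1 and 2 in all panels but that of Slfn2, and Znfx1 is highest on the mutant arrays.

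All 6 genes of ADP-ribosylation and ubiquitin transfer rose with WT and with G1809R in the block fit, and 3 of them, Parp9, Parp12 and Parp14, also with D1709N. Parp14, Dtx3l and Parp9 follow one another on chromosome 16, and the DTX3L and PARP9 proteins form a complex that marks histones and viral proteins. Parp9 was at -0.17, 1.02 and -0.50 with GFP, 3.24, 3.01 and 1.24 with WT, 1.25, 2.23 and 1.05 with D1709N and 1.83, 2.79 and 1.19 with G1809R. Dtx3l, the ubiquitin ligase of the pair, was at -0.95, -0.16 and -1.49 with GFP, 2.47, 2.06 and 0.19 with WT, 0.29, 1.25 and -0.01 with D1709N and 0.67, 1.68 and 0.37 with G1809R. For both genes all arrays with DICER1 lay above GFP, D1709N replicate 3 by little. Parp9 changed by 2.38, 1.39 and 1.82 (SE 0.31 each, limma block adjusted p = 0.00190, 0.0448 and 0.0229). Changes of Dtx3l were 2.44, 1.38 and 1.77 (SE 0.34 each, limma block adjusted p = 0.00260, 0.0613 and 0.0336).

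Parp12, an ADP-ribosyltransferase that blocks translation of viral RNA, was at -3.28, -2.19 and -4.19 with GFP, 0.32, -0.02 and -2.01 with WT, -1.47, -0.45 and -1.91 with D1709N and -1.12, 0.15 and -1.49 with G1809R. GFP lay below all other arrays. Its changes were 2.65, 1.94 and 2.40 (SE 0.34 each, limma block adjusted p = 0.00190, 0.0239 and 0.0148). Parp14 changed by 2.92, 2.20 and 2.83 (SE 0.43 each, limma block adjusted p = 0.00298, 0.0313 and 0.0169), and G1809R differed from WT by -0.09 (95% interval -1.07 to 0.88). Trim25, the ubiquitin ligase linked to the RNA sensor RIG-I, was at 4.34, 4.80 and 4.21 with GFP, 5.64, 5.66 and 4.94 with WT, 4.57, 5.15 and 4.69 with D1709N and 5.02, 5.33 and 4.84 with G1809R. WT and G1809R did not overlap GFP, and D1709N did. Changes of Trim25 were 0.96, 0.35 and 0.61 (SE 0.14 each, limma block adjusted p = 0.00267, 0.180 and 0.0480). Trim21, a cytosolic antibody receptor, had changes of 2.08, 1.01 and 1.40 (SE 0.28 each, limma block adjusted p = 0.00204, 0.0802 and 0.0349).

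Changes of the 2 nuclear body genes were at most 0.67. Sp100, a protein of these bodies that represses viral genomes, was at -2.85, -2.67 and -2.39 with GFP, -1.67, -1.89 and -2.34 with WT, -2.66, -2.43 and -2.21 with D1709N and -2.62, -2.18 and -2.47 with G1809R. WT lay above GFP, by 0.67 ± 0.21 (SE, limma adjusted p = 0.133, and 0.0569 with the block), while both mutants overlapped GFP. Pml, which builds these bodies, rose with WT in the block fit by 0.60 ± 0.15 (SE, limma adjusted p = 0.0258), a call made in 8 of 12 fits that left out an array. Its D1709N and G1809R changes were 0.17 and 0.37 and were not called.

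Among the remaining genes, Xaf1, an antagonist of the apoptosis inhibitor XIAP, was at 1.15, 3.11 and 1.34 with GFP, 4.94, 5.03 and 3.75 with WT, 2.96, 4.21 and 3.33 with D1709N and 3.28, 4.83 and 3.58 with G1809R. GFP replicate 2 lay above D1709N replicate 1 and below all WT and G1809R arrays. Xaf1 rose with WT without a block, by 2.71 ± 0.62 (SE), 6.53-fold (limma adjusted p = 0.0496). It lost that call when any array except GFP replicate 2 and G1809R replicate 2 was left out (adjusted p 0.0514 to 0.180). The call was also lost with the mean of all kept probes (0.0735), without the filter on dim probes (0.118), with only the 2 groups compared (0.175) and on slide 2 alone (0.298). Xaf1 kept it in all 12 leave-one-out fits with the block. Its other probe gave 2.07. Lgals3bp, a secreted glycoprotein, was at 2.11, 3.97 and 2.80 with GFP, 4.76, 5.22 and 4.32 with WT, 3.68, 4.55 and 3.91 with D1709N and 4.15, 4.84 and 4.16 with G1809R. The D1709N arrays overlapped GFP replicate 2 and the others did not. Lgals3bp changed by 1.81, 1.09 and 1.42 (SE 0.24 each, limma block adjusted p = 0.00193, 0.0419 and 0.0222).

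Tor3a, an ATPase of the endoplasmic reticulum, rose with WT in the block fit by 1.82 ± 0.36 (SE, limma adjusted p = 0.0107) and was not called with D1709N (0.68) or G1809R (0.96). Cd274, the checkpoint ligand PD-L1, was at -0.55, -0.39 and -0.62 with GFP, 0.29, 0.16 and -0.31 with WT, -0.12, 0.74 and 0.16 with D1709N and 0.06, 0.81 and 0.08 with G1809R. All arrays with DICER1 lay above GFP, yet none of its changes, 0.57, 0.79 and 0.84 (SE 0.19 each), was called in either fit (limma block adjusted p = 0.0720 with WT and 0.0558 with D1709N, and just above the threshold with G1809R). Trafd1, a feedback inhibitor of innate signalling, had differences of 0.14, 0.08 and 0.11 (SE 0.08 each), and the 95% intervals with the block reached at most 0.33, 0.27 and 0.30.

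The genes moved together from array to array as well as from group to group. GFP replicate 2 was the highest GFP array for 27 of 29 genes, D1709N replicate 2 the highest of its group for 26 and G1809R replicate 2 for 28, whereas WT replicate 3 was the lowest WT array for 28. For 28 genes WT replicates 1 and 2 lay above all GFP arrays, and for 11 WT replicate 3 lay below GFP replicate 2. With all 3 WT arrays, 17 of 29 genes lay above GFP, against 9.64% of all genes. The lowest of the 12 values fell on a GFP array for 28 genes, and the highest on a WT array for 19, a G1809R array for 9 and a D1709N array for 1. For the counts by single arrays and of lowest and highest values, the shares over all genes were not computed. Relative to each gene's mean over 12 arrays, the median of the 29 genes was -1.35, -0.31 and -1.32 on GFP, 1.15, 1.19 and -0.13 on WT, -0.30, 0.68 and -0.29 on D1709N and 0.03, 1.01 and -0.11 on G1809R. The median over all genes stayed between -0.08 and 0.10 on every array.

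**Figure D3:**
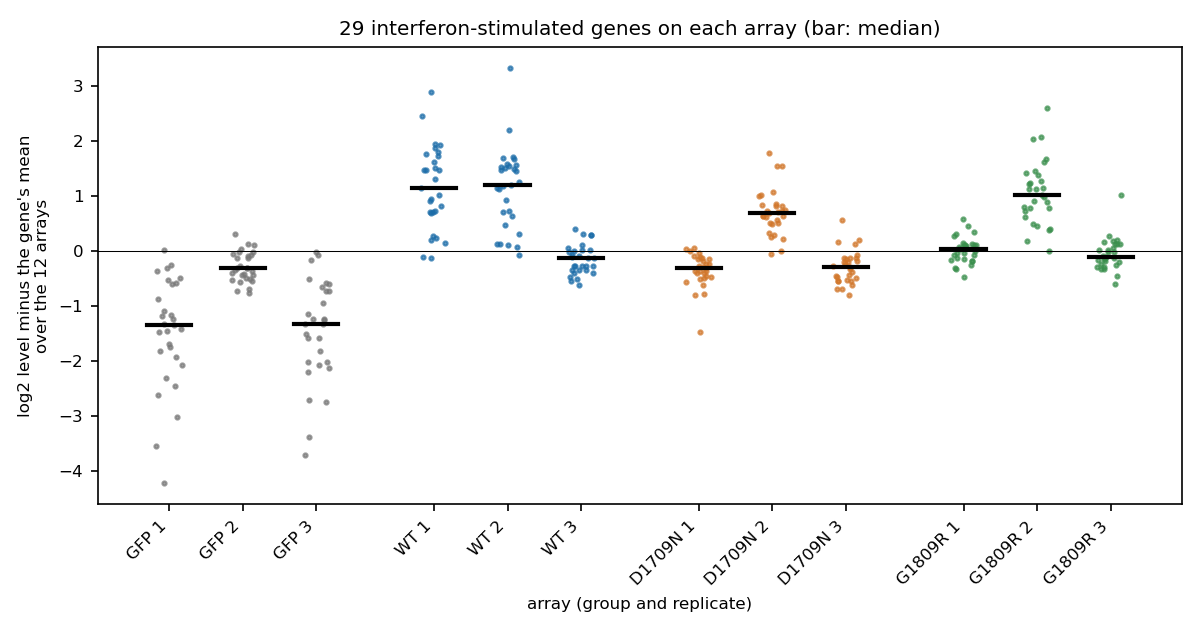
Log2 level minus the gene's mean over the 12 arrays (vertical axis) for the 29 genes on each array (horizontal axis), one point per gene and a bar at the median. The GFP medians run from -1.35 to -0.31, WT replicates 1 and 2 reach 1.15 and 1.19, and WT replicate 3 is at -0.13.

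Compared within replicate numbers, the median change with WT was 2.63 in replicate 1, 1.32 in replicate 2 and 1.20 in replicate 3. All 29 genes had a larger difference on slide 1 than on slide 2, where the median was 1.30. The mutants showed no such spread, with 1.05, 1.00 and 1.05 for D1709N and 1.25, 1.27 and 1.26 for G1809R. WT replicate 1, the array that stood apart in signal over background, carries the slide 1 value, and its part in the larger change was not tested. On slide 2 alone, limma called 0 of 29 genes in each comparison, where it called nearly none of all 24183 genes. Over all genes it called 3, 1 and 1 for WT, D1709N and G1809R against GFP. It called 3 and 11 for D1709N and G1809R against WT, and 0 between the mutants. At an unadjusted p under 0.05 there were 7, 3 and 7 of 29 for WT, D1709N and G1809R against GFP. The shares over all genes were 13.6%, 9.11% and 7.03%.

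With D1709N compared with WT, the 29 genes were lower at the median by a log2 difference of -0.71, against -0.01 for all genes, and 25 of 29 means were lower. limma called 0 of 29 (background 1.66%), with 3 at an unadjusted p under 0.05 (Znfx1, Cmpk2 and Trim25; background 13.7%). With the replicate block 5 fell, against 8.42% of all genes called lower, and 1 rose, against 7.12% called higher. Cmpk2 differed by -1.91 (95% interval -3.06 to -0.76, limma block adjusted p = 0.0365), Ifi44 by -2.30 (-3.72 to -0.88, 0.0405) and Samd9l by -1.13 (-1.86 to -0.40, 0.0467). Trim21 differed by -1.07 (-1.70 to -0.44, 0.0340) and Trim25 by -0.61 (-0.92 to -0.30, 0.0210). The gene that rose was Znfx1, by 0.44 (0.19 to 0.69, 0.0304), and it was the only one of 29 whose D1709N and WT arrays did not overlap, against 17.6% of all genes.

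The D1709N difference from WT varied between replicates, with medians of -1.45, -0.48 and -0.17 in replicates 1 to 3 and of -0.31 on slide 2. The block count of 6 became 15 without WT replicate 3, 0 without D1709N replicate 2, and 1 without D1709N replicate 1 or 3 or WT replicate 2. It became 2 without G1809R replicate 2 or GFP replicate 3, and 3 without G1809R replicate 3. Over all genes, the block calls ranged from 1576 to 3376 in the fits that left out 1 array, against 3760 with all arrays. For Eif2ak2, Adar, Stat2 and Rsad2 the differences were -0.71, -0.60, -1.01 and -1.1, and none was called. Their 95% intervals were -1.19 to -0.22, -1.20 to -0.01, -1.71 to -0.31 and -2.08 to -0.12.

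With G1809R compared with WT, the median difference was -0.42, against 0.01 for all genes, and 24 of 29 means were lower. limma called 0 of 29 without the block (background 1.64%) and 0 of 29 with it (background 12.7%), and 1 gene, Znfx1, had an unadjusted p under 0.05 (background 12.2%). Znfx1 differed by 0.39 (95% interval 0.14 to 0.64, limma block adjusted p = 0.0523), and its arrays alone among the 29 did not overlap, against 14.6% of all genes. Sp100 differed by -0.45 (-0.92 to 0.02) and Slfn2 by 0.73 (0.20 to 1.25). Replicate medians were -1.16, -0.20 and 0.03, so the difference lay mainly in replicate 1. The block count became 5 without WT replicate 3, 2 without WT replicate 1, and 1 without D1709N replicate 1 or 2 or GFP replicate 1. Over all genes, the block calls ranged from 1573 to 2773 in the fits that left out 1 array, against 3065 with all arrays.

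**Figure D4:**
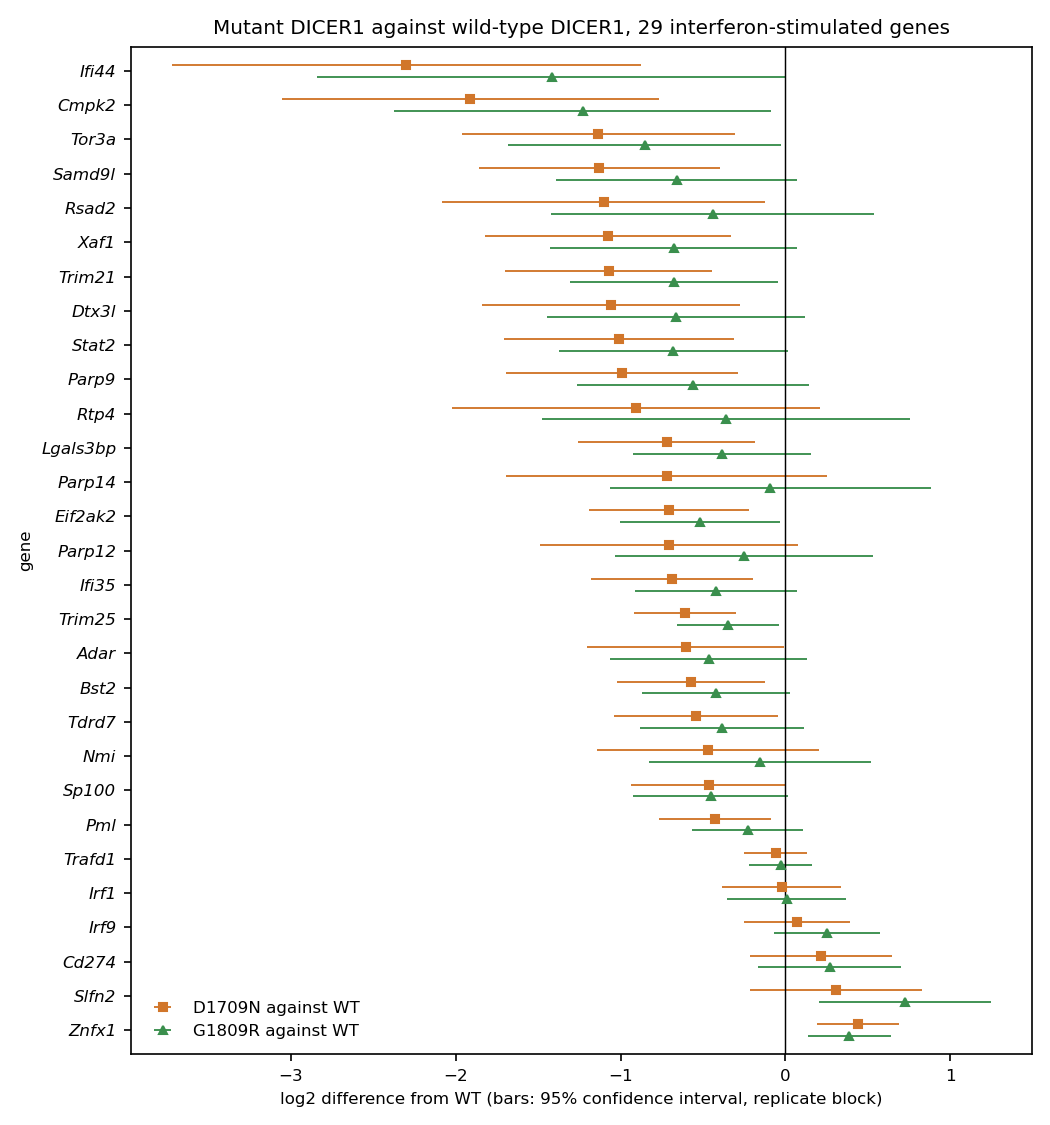
Log2 difference from WT (horizontal axis) of the 29 genes (vertical axis) with D1709N and G1809R, with 95% confidence intervals from the fit with the replicate block. Most points lie left of 0, from -2.30 for Ifi44 with D1709N, and Znfx1 lies at 0.44 and 0.39.

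Between the mutants the median difference was 0.32, with a higher G1809R mean in 28 of 29 genes and replicate medians of 0.33, 0.37 and 0.23. The median of 0.32 turned to -0.067 without G1809R replicate 2 and was 0.59 without D1709N replicate 2, 0.14 without D1709N replicate 1 or 3, and 0.45 without G1809R replicate 1 or 3. In both mutants replicate 2 was the highest array for most of the genes, so leaving it out of 1 group lowers that mean alone. limma called 0 of 29 genes, with or without the block, as it called 0 of all genes (background 0% in both), and 0 of 29 had an unadjusted p under 0.05 (background 0.269%). No gene had arrays that did not overlap, against 2.46%. The smallest p belonged to Trim25, Slfn2 and Cmpk2, with differences of 0.26 (-0.05 to 0.57), 0.42 (-0.10 to 0.94) and 0.68 (-0.47 to 1.83). The order GFP, D1709N, G1809R, WT from lowest to highest mean held for 24 genes. Irf9, Slfn2 and Cd274 had WT below both mutants with G1809R highest, Znfx1 had WT below both with D1709N highest, and Irf1 had WT between them.

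The pathway that lies upstream and around these genes was followed with 22 other genes, of which 21 were tested and Ifna4 was not. Ifnb1, interferon beta itself, was the only one called without the block in WT against GFP. Its level was -8.27, -5.31 and -6.49 with GFP, -1.43, -2.64 and -2.57 with WT, -4.70, -4.43 and -4.13 with D1709N and -4.12, -3.88 and -3.86 with G1809R. Of the GFP arrays, replicate 2 alone had Ifnb1 well above background, and it was the highest GFP array for 27 of the 29 genes. The other groups did not share this match. Of the WT arrays, replicate 2 had the lowest Ifnb1 (-2.64) and the highest median deviation of the 29 genes (1.19). WT replicate 3 had Ifnb1 at -2.57 and a median deviation of -0.13. In both mutants Ifnb1 was highest on replicate 3, with G1809R by little. There replicate 2 was highest for 26 of the 29 genes with D1709N and 28 with G1809R. For Ifnb1, the groups did not overlap with GFP or, for the mutants, with WT. With the GFP arrays set no lower than each array's lowest signal well above background, Ifnb1 was at least 11.4-fold higher with WT. By the same limit it was at least 2.48-fold higher with D1709N and at least 3.42-fold higher with G1809R. The tests used the values without this limit, where the differences were 4.48, 2.27 and 2.74. Ifnb1 was called with WT (limma adjusted p = 0.00783), and with D1709N and G1809R it was not called with the block (limma adjusted p = 0.0801 and 0.0510). Against WT, Ifnb1 fell by 2.20 with D1709N in the block fit (limma adjusted p = 0.0466) and differed by -1.74 with G1809R (0.110).

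With the block, 7 of the 21 pathway genes rose with WT (among them Ifnb1, Irf7, Socs1, Usp18, Isg15 and Ifit1) and 3 fell (Jak2, Socs3 and Ptpn2), where 9.18% of all genes were called higher and 8.61% lower. With D1709N 2 rose (Isg15 and Ifit1, background 1.77%), with G1809R 5 rose (Irf7, Socs1, Usp18, Isg15 and Ifit1, background 1.75%), and none of the 21 fell with either. Irf7, the factor that amplifies interferon production, had changes of 2.98 with WT (limma block adjusted p = 0.00170), 1.59 with D1709N (0.0529) and 2.00 with G1809R (0.0305). The receptor gene Ifnar1 had differences of 0.03, 0.08 and -0.03 and was called with none. The median of the 21 genes was 0.08 with WT, 0.03 with D1709N and 0.02 with G1809R.

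Of the markers of 4 kinds of cells, 20 were tested, and without the block none was called against GFP. Against WT 1 was called, Pdgfrb with D1709N (-1.11, limma adjusted p = 0.0342, background 1.66%). With the block, 4 of 20 were called with WT against GFP, near the background of 17.8%. Vim was lower (-0.77), and Thy1 (0.69), Pdgfrb (0.74) and the monocyte marker Cd14 (0.51) were higher. Kdr and Col1a2 were called lower with both mutants against GFP (background 4.25% with D1709N and 3.74% with G1809R). Against WT, 9 of 20 were called with D1709N (background 15.5%) and 7 with G1809R (12.7%). Vim, Krt8, Wt1 and Csf1r were higher with both, and Thy1, Pdgfrb and Kdr lower with both. Of 10 leukocyte markers, 9 were matched, 5 of them above background on all 12 arrays. Their summed level, in units of the array's 75th percentile, ran from 97.0 to 115 with GFP, 98.2 to 116 with WT, 103 to 128 with D1709N and 97.3 to 122 with G1809R. The Siglech probe alone gave 80.5 of the 97.0 on GFP replicate 1. Ptprc, the general leukocyte marker, was above background on 5 of 12 arrays and Lyz2 on 1. Of the epithelial markers Krt8, Krt18 and Ovgp1 were above background on all 12 arrays, Epcam on 11, Cdh1 on 10, and Pax8 and Foxj1 on 4. The 7 mesenchymal markers, 6 of them above background on all 12 arrays, summed to 81.0 to 112 with GFP and 62.9 to 81.0 with WT, and to 89.2 to 112 with D1709N and 91.1 to 106 with G1809R. The 5 endothelial markers summed to 14.7 to 26.2 with GFP, 15.5 to 25.4 with WT, 10.1 to 19.1 with D1709N and 10.3 to 19.0 with G1809R, and Cdh5 was above background on 0 arrays. The part of these marker differences in the results was not tested.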

How the data were processed

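The deposited scanner files of the 12 one-colour arrays hold a processed intensity per spot, background-subtracted and detrended per the file headers, with Agilent Feature Extraction 11.0.1.1. RNA was labelled with Cy3 from 100 ng, per the labels' protocols. The deposited matrix of values gives log2 signals for 31362 probes (31334 matched to scanner probes). Its column medians ran from 9.40 to 9.42, its correlation with the scanner values was 0.995 on WT replicate 1 and over 0.999 elsewhere, and its scaling remains unknown. It served as an alternative.

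Log2 intensities were set relative to each array's 75th percentile (1036 to 1462) over 59305 non-control spots. The 3671 control spots and 287 of 55681 probes with flagged spots were left out, and 33023 probes were kept that exceeded background clearly on all arrays of 1 or more groups. Probes were named by RefSeq identifier (GRCm38.p6), and the probe with the highest mean stood for its gene. This gave 24183 genes, 14731 with a symbol. No spot was saturated. The number of arrays limits the precision.

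All 12 arrays entered 1 fit with limma 3.58.1 in R 4.3.3 (files read with the package data.table, version 1.17.8), with Benjamini-Hochberg adjustment over all genes and a threshold of 0.05, two-sided. Errors of changes are SEs from limma over 3 arrays a group. The replicate numbers come from the sample titles. All 18 pairs of arrays with the same number in different groups had deviations from the group means that correlated at 0.60 to 0.85, so the fit with the number as a block is given too. Pairs with different numbers gave -0.67 to 0.20. The deviations sum to 0 within each group, which pulls the values for different numbers below 0, so they are no separate support for the block. The code was tested on simulated data. Alternatives were other normalizations, filters, probe rules and blocks, slide 2 alone, only the groups compared, and each array left out.

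The genes, role groups, marker lists and tests were chosen with earlier results of these data known. Values per array are given for the 12 genes with the smallest p in WT against GFP, for the called genes or the 3 with the smallest p in the other comparisons, and for Stat2, Irf9, Irf1, Eif2ak2, Adar, Bst2, Rsad2 and Cd274; other genes are summarised. Genes singled out beyond that rule were chosen after their values were seen. Results that need items withheld from this text are not reported here.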

Additional observations from a re-analysis of the deposited data

How the results depend on the processing

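The count of genes called without a block in WT against GFP, 2, was 0 without the filter on dim probes, 8 with probes well above background on all 12 arrays, 11 with normexp and quantile normalization, 7 with the deposited values, 24 with the replicate block, 11 with the slide as block, and 0 on slide 2 alone or with only the groups compared. It was also 2 with quantile normalization (Xaf1 and Rtp4, not Cmpk2) and with the mean of all kept probes (Cmpk2 and Adar, not Xaf1). The count of 0 became 11 with the replicate block and 1 with the slide as block in D1709N against GFP, 21 and 1 in G1809R against GFP, and 6 with the replicate block in D1709N against WT.

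Leaving out each array without a block gave 0 to 9 calls in WT against GFP and 0 in the other comparisons. Over all genes, these fits gave 146 to 601 calls in WT against GFP, and 2 to 8 and 1 to 2 in D1709N and G1809R against GFP. They gave 41 to 307 and 70 to 314 in D1709N and G1809R against WT, and 0 between the mutants. With the replicate block, WT against GFP gave 20, 22 and 22 without GFP replicates 1, 2 and 3, 23, 22 and 25 without WT replicates, and 24 without any mutant array. In the order GFP, WT, D1709N and G1809R, replicates 1 to 3 of each, D1709N against GFP gave 2, 3, 0, 21, 8, 15, 1, 0, 0, 5, 4 and 5, and G1809R against GFP gave 3, 3, 1, 24, 17, 22, 18, 13, 13, 2, 0 and 0. D1709N against WT gave 6, 4, 2, 6, 1, 15, 1, 0, 1, 4, 2 and 3, and G1809R against WT gave 1, 0, 0, 2, 0, 5, 1, 1, 0, 0, 0 and 0. G1809R against D1709N gave 0 in all of these fits, with 0 to 1 calls over all genes.

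The change of Irf1 with WT reversed, from 0.04 to -0.22 on slide 2 alone. It ran from -0.10 without GFP replicate 1 to 0.20 without GFP replicate 2, was -0.076 without WT replicate 1, and with the replicate block was -0.069 without GFP replicate 1 and -0.19 without WT replicate 1. The median of G1809R against D1709N turned from 0.32 to -0.067 without G1809R replicate 2 and was 0.59 without D1709N replicate 2. Replicate 2 was the highest array of its group for 28 genes with G1809R and 26 with D1709N. Leaving it out of 1 group therefore lowers the mean of that group alone. Within replicate numbers the medians were 0.33, 0.37 and 0.23. What sets the replicates apart was not tested.

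Over all genes, the calls in WT against GFP, D1709N against GFP, G1809R against GFP, D1709N against WT and G1809R against WT were 713, 12, 3, 402 and 397. They were 206, 2, 1, 55 and 68 without the filter, 4300, 1028, 904, 3760 and 3065 with the replicate block, 2112, 97, 63, 1407 and 1206 with the slide as block, 3, 1, 1, 3 and 11 on slide 2, and 3, 0, 1, 0 and 0 with only the groups compared. The mean of all kept probes gave 3 and 1 in D1709N and G1809R against GFP, and normexp gave 5 in G1809R against GFP. The normexp alternative used the median spot signal and, like the block fits with arrays left out, was chosen after seeing the data.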
